A study of Ovis aries with 8 samples.

Results

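The genes described here are the NDUF genes of sheep, most of which encode nuclear subunits of respiratory complex I or proteins that assemble it. They were taken as every row of the expression table whose gene name starts with NDUF and names a single gene, which gave 34 of 25000 rows. Of these, 31 passed the abundance filter (a mean of at least 1 FPKM over all 8 animals). They comprised 24 subunits, 6 assembly factors (gene names starting with NDUFAF) and NDUFA4L2, which was classed as neither a complex I subunit nor an assembly factor. FPKM counts sequenced fragments for each kilobase of a transcript, set against an estimate of the size of that library, so genes of different length can be compared.

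Complex I (NADH:ubiquinone oxidoreductase) is the entry point of electrons from NADH into the mitochondrial respiratory chain, and it pumps protons across the inner membrane as it passes those electrons to ubiquinone. Its core subunits carry the flavin and the iron-sulfur clusters or form the proton channels. The accessory subunits surround this core, and assembly factors join the parts without staying in the finished enzyme. It is built from an NADH-oxidising N module, a ubiquinone-reducing Q module and a membrane-embedded P module. In islet beta cells mitochondrial oxidation provides the ATP that couples glucose to insulin release.

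The RNA came from pancreatic islets, picked by hand, of 8 singleton Columbia-Rambouillet fetuses close to term. The 4 norepinephrine fetuses were infused intravenously with norepinephrine for 7 days, at 1 µg/min on day 1, 2 µg/min on days 2 to 4 and 4 µg/min on days 5 to 7. The 4 control fetuses were infused with diluent only (0.9% saline with ascorbic acid at 0.3%). Norepinephrine fetuses were 138.25 ± 0.957 days of gestation and weighed 3.12 ± 0.403 kg, and control fetuses were 139.75 ± 0.50 days and weighed 4.20 ± 0.589 kg (SD, n = 4 each). Norepinephrine animal 3 and control 2 are labelled female and the other 6 male. Each label carries an animal number, which begins with 09 in norepinephrine animals 1, 3 and 4 and control 2, and with 10 in norepinephrine animal 2 and controls 1, 3 and 4. What these digits stand for is not given in the labels. The 09 fetuses were 138.25 ± 0.957 days old and the 10 fetuses 139.75 ± 0.50 days (SD, n = 4 each). They weighed 3.10 ± 0.356 kg in 09 and 4.22 ± 0.556 kg in 10 (SD, n = 4 each), with no overlap (2.8 to 3.6 kg in 09, 3.7 to 5 kg in 10). Both comparisons below, norepinephrine against control and 09 against 10, use the same 8 animals.

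Islet markers were abundant: 8 of the 10 on the list passed the filter, among them GCG (glucagon), SST (somatostatin) and PDX1 (a beta-cell transcription factor), IAPP was listed at 0 in every animal and INS has no row of its own. Markers of acinar cells, the enzyme-secreting cells of the exocrine pancreas, were also present, with 8 of 20 tested and the lipase gene PNLIP, under the filter, at 0 in 3 animals. The summed level of the 8 was 592, 137, 1038 and 377 FPKM in norepinephrine animals 1 to 4, against 160, 172, 125 and 139.6 FPKM in controls 1 to 4. Animals numbered 09 stood apart from those numbered 10 in the whole table. Summed FPKM was 981583 to 1112624 in 09 and 768021 to 796149 in 10, and the 100 most abundant rows held 38.7% to 40.3% of it in 09 and 32.4% to 35.1% in 10. The median over the tested rows was alike as deposited, at 15.1 to 15.4 FPKM in 09 and 15.2 to 15.5 FPKM in 10. In bulk RNA of this kind, fewer cells of a type and less RNA per cell cannot be told apart.

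Complex I transcripts were abundant in these islets. The mean over all animals ranged from 18.2 FPKM for NDUFS7 to 476 FPKM for NDUFS5 among the 24 subunits, with a median of 175 FPKM, against 15.7 FPKM over all 13252 tested rows. The 6 assembly factors had a median of 9.39 FPKM, and NDUFAF5 was the lowest at 1.56 FPKM. The level of a subunit differed between its highest and lowest animal by 1.28-fold to 2.92-fold, with a median of 1.81-fold, whereas NDUFA4L2 differed by 71.6-fold. Members not tested were NDUFS6 and NDUFB1, listed at 0 in every animal, and NDUFAB1, the mitochondrial acyl carrier protein, listed at 0.160 FPKM in control 1 and at 0 in the other 7 animals. Their rows span 294, 174 and 2882 bp and lie on a chromosome or scaffold other than the one that RefSeq gives for a gene of that name on another sheep assembly, so they say nothing on the expression of these subunits. Some other NDUF genes, NDUFA4 among them, are not analysed here. In 8 of the 34 members, other rows have the same locus, so reads could have been divided between genes there; NDUFS3, for example, shares its locus with 5 other rows.

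Norepinephrine infusion was the treatment the study was built to compare, and no tested NDUF gene passed the test for it. Of 31 members 0 were called at an adjusted p under 0.05 (limma, Benjamini-Hochberg over all 13252 rows), and the same fit called 0 of the 13252 rows, a background of 0%. At an unadjusted p under 0.05 there were 2 members, NDUFAF3 and NDUFB10, against 975 of all rows (7.36%). Leaving out control 2 raised these to 11 members and 2201 rows, still with 0 of either called, with a subunit median of 0.26, whereas leaving out any other control gave 0 members. The median log2 difference of the 24 subunits, norepinephrine minus control, was 0.09, with 20 of 24 positive, and that of all rows was 0.02. Scaling every animal to the same total moves all rows of an animal alike: the median of all rows was then -0.12 and that of the subunits -0.06, which is 0.06 above all rows, against 0.08 above as deposited. The sign of the subunit median turned to -0.15 with the number prefix in the model, -0.20 with gestational age and -0.12 with the acinar marker level, which is 0.14, 0.16 and 0.12 below all rows, in that order. The assembly factors had a median of 0.14 as deposited, 0.02 at equal totals and -0.03 with gestational age in the model. For no member did the norepinephrine animals separate from the controls, against 1.88% of all rows wholly higher and 2.35% wholly lower with norepinephrine.

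Between number groups many of these genes differed: 18 of 31 members were called as deposited, and all 18 were higher in animals numbered 09. They were 16 of 24 subunits, 1 of 6 assembly factors (NDUFAF3) and NDUFA4L2, with 0 members called lower. Over all rows, 10.4% were called higher and 6.06% lower in 09 (limma with treatment in the model, Benjamini-Hochberg). The median log2 difference of the subunits, 09 minus 10, was 0.58, against 0.09 for all rows. The subunits were more abundant (median 175 FPKM, against 15.7 FPKM for all rows), and rows matched for abundance were not compared. By class, 4 of 6 core subunits and 12 of 18 accessory subunits were called higher. By module it was 4 of 7 subunits of the N module, 3 of 4 of the Q module and 9 of 13 of the P module. For 20 of 31 members all 4 animals numbered 09 were above all 4 numbered 10, among them 18 of 24 subunits, and for 0 members they were all below; over all rows these shares were 14.8% and 10.6%.

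**Figure D1:**
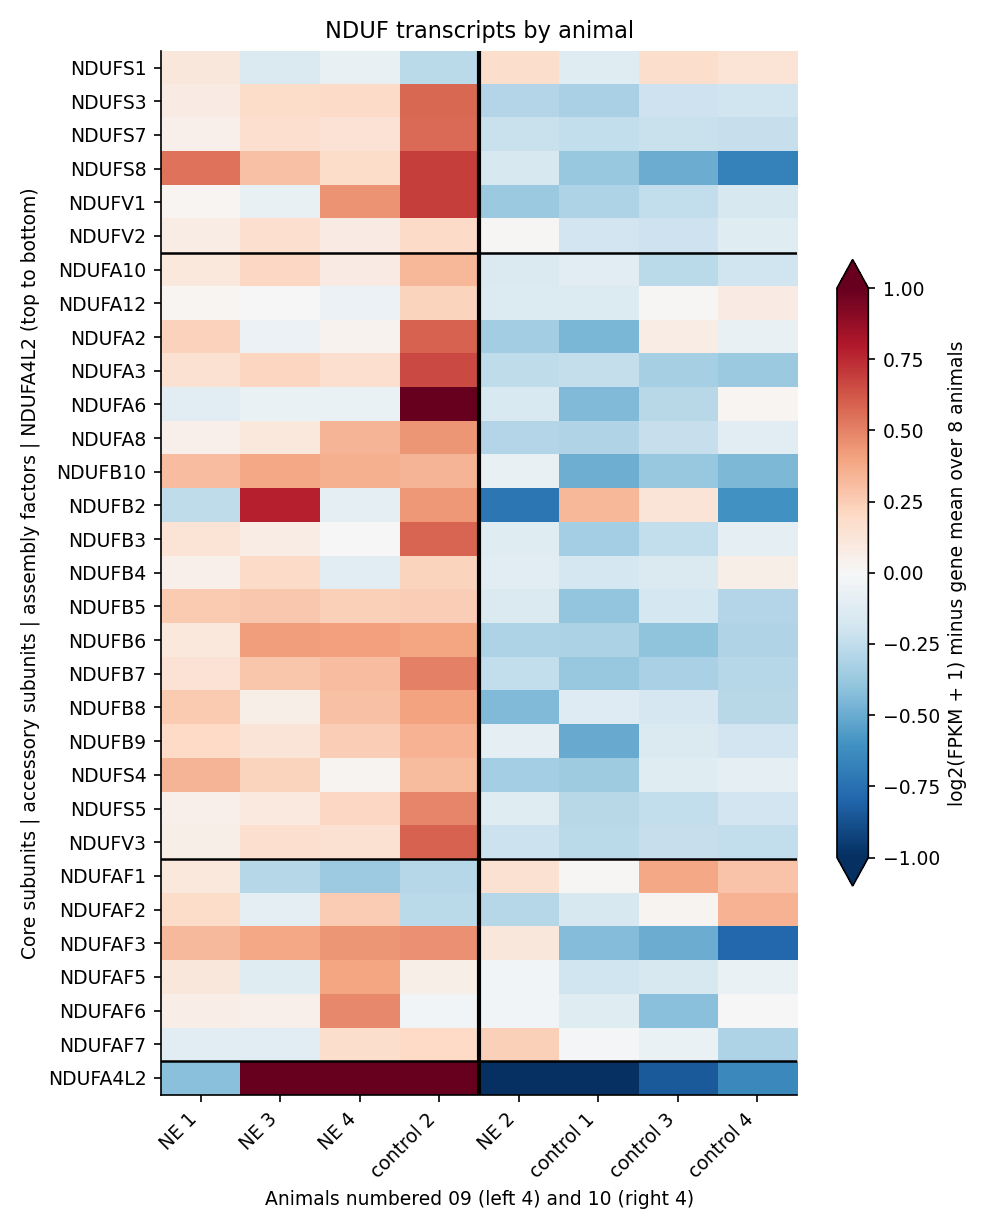
Levels of the 31 tested NDUF members (rows) in each animal (columns), as log2(FPKM + 1) minus the mean of that gene over 8 animals. The 4 animals numbered 09 are on the left and the 4 numbered 10 on the right; for 18 of 24 subunits every 09 animal is above every 10 animal as deposited, while 1 of 6 assembly factors shows this. Colours are cut at 1 in each direction, and NDUFA4L2 runs past it in both.

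The calls between number groups depended on the scaling and on single animals. Scaling all animals to the same total, which moves all rows of an animal alike, shifted the median of all rows to -0.31; the subunit median was then 0.14, with 19 of 24 positive, which is 0.45 above all rows, compared with 0.49 above all rows as deposited. At equal totals NDUFA4L2 was the only member called higher (2.97) and NDUFS1 (-0.71) and NDUFAF1 (-0.81) were called lower, beside a background of 1.79% higher and 31% lower. With median-of-ratios scaling 14 members were called, all higher, beside 8% of all rows higher and 7.86% lower. Leaving out control 2, the only control numbered 09, left 0 members called, beside 0.0528% of all rows higher and 0.083% lower (18 rows in all; 13 members and 2356 rows at an unadjusted p under 0.05), with a subunit median of 0.41. Leaving out another animal gave 11 called members without norepinephrine animal 2 (5.33% of all rows, in either direction), 9 without control 1 (6.6%), 8 without control 3 (6.34%) and 11 without control 4 (8.52%). Without norepinephrine animals 1, 3 and 4 it gave 16, 15 and 16 members, in that order, beside 17.2%, 13.7% and 16.9% of all rows. The subunit median lay 0.36 (without control 2) to 0.63 (without norepinephrine animal 2) above that of all rows on leaving out single animals. With gestational age in the model 0 members were called (all rows: 0.00755% higher, 0% lower; 21 members and 3576 rows at an unadjusted p under 0.05), while the subunit median was 0.53, with 23 of 24 positive, which is 0.48 above all rows. With the acinar marker level 1 was called, NDUFV1 (all rows: 1.71% higher, 0.498% lower). Both animals labelled female are numbered 09, and every animal numbered 10 is labelled male. Of the 24 subunits, control 2 was highest for 18 and norepinephrine animal 3 for 4, and these are the female animals. No fit had sex in the model. The part that sex, age, weight and acinar content have in the difference was not tested further.

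As deposited, the 09 minus 10 difference of the subunits had the same sign within each treatment, where 1 arm holds a single animal. With treatment in the model, leaving out control 2 gives the difference among norepinephrine animals. Leaving out norepinephrine animal 2 gives that among controls. The medians here therefore repeat those given above and are not separate support. Among norepinephrine animals, all 3 numbered 09 were above animal 2, numbered 10, for 23 of 24 subunits, with a median log2 difference of 0.41. The share of all rows with this order was 33.9%. Among controls, control 2 was above controls 1, 3 and 4 for 23 of 24 subunits, with a median of 0.73, and the share of all rows was 44.7%. NDUFS1 was the exception both times. For the assembly factors the order held in 3 of 6 within each treatment. At equal totals the order held in 6 of 24 subunits among norepinephrine animals, with a median of 0.01 and 13 of 24 positive, against 10.8% of all rows. Among controls it then held in 15 of 24 subunits, with a median of 0.23, against 15.8% of all rows. The medians of all rows were -0.31 among norepinephrine animals and -0.34 among controls at this scaling, and 0.05 and 0.09 as deposited.

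**Figure D2:**
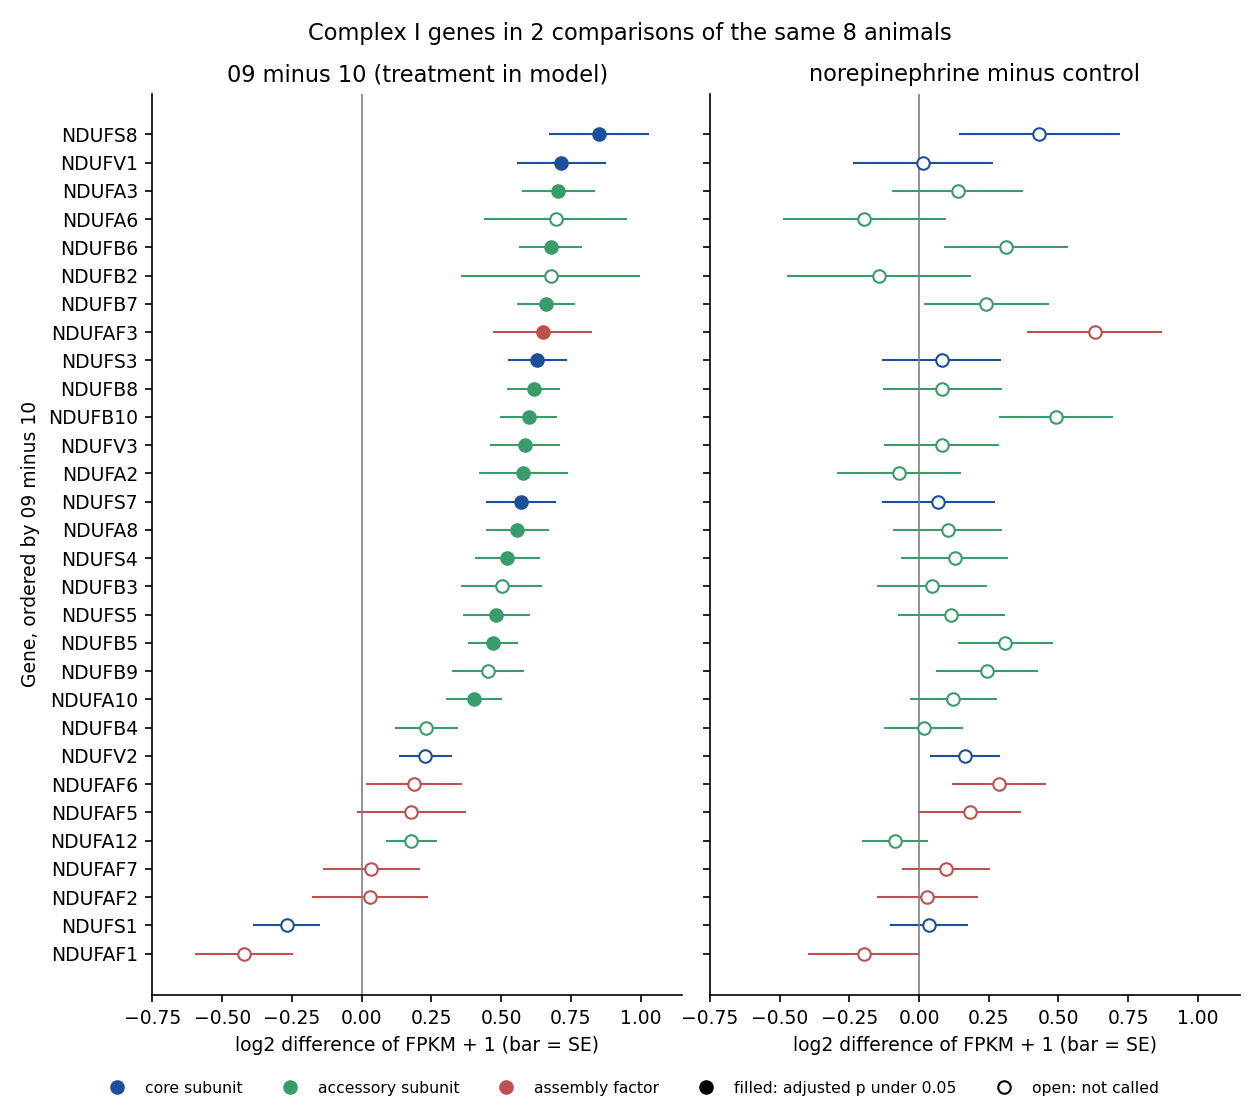
Log2 difference of FPKM + 1 for the 24 subunits and 6 assembly factors, with bars of 1 SE, for 09 minus 10 (left) and norepinephrine minus control (right) in the same 8 animals. Filled points are called at an adjusted p under 0.05: 17 of the 30 genes on the left, all higher in 09 as deposited, and 0 on the right. At equal library totals the left panel would hold 2 called genes, NDUFS1 and NDUFAF1, both lower in 09.

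The nuclear core subunits form the electron path of the enzyme, and 6 were tested. NDUFV1 (chromosome 21 from 44743104 to 44748593, Oar_v3.1), the flavoprotein that takes electrons from NADH, had 157, 119.8, 148 and 213 FPKM in norepinephrine animals 1 to 4, against 125, 251, 131 and 139 FPKM in controls 1 to 4. Control 2 and norepinephrine animal 4 were the highest, and the 09 animals (148 to 251 FPKM) lay wholly above the 10 animals (119.8 to 139 FPKM). The log2 difference was 0.72 (SE 0.16, adjusted p = 0.0263) for 09 minus 10 and 0.01 (SE 0.25, adjusted p = 0.991) for norepinephrine minus control. NDUFV2 (chromosome 23 from 41731159 to 41785983), its iron-sulfur partner, had 197, 188, 209 and 197 FPKM in norepinephrine animals 1 to 4, against 163, 213, 162 and 172 FPKM in controls 1 to 4. Here too the number groups did not overlap, but the step between them was small, and at 0.23 (SE 0.09, adjusted p = 0.127) it was not called. Its sign turned to -0.22 at equal totals, and for norepinephrine minus control it gave 0.16 (SE 0.13, adjusted p = 0.777).

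NDUFS1 (chromosome 2 from 207166821 to 207195222), the largest subunit and carrier of several iron-sulfur clusters, had 68.5, 71.4, 57.0 and 60.2 FPKM in norepinephrine animals 1 to 4, against 58.2, 52.4, 71.5 and 69.7 FPKM in controls 1 to 4. It was the one subunit whose mean was lower in 09, at 59.5 ± 6.79 FPKM, than in 10, at 67.7 ± 6.40 FPKM (SD, n = 4 each), and the groups overlapped. The difference of -0.27 (SE 0.12, adjusted p = 0.152) was not called as deposited, nor was that of 0.04 (SE 0.14, adjusted p = 0.960) for norepinephrine. Control 2, the highest animal for most subunits, was the lowest for NDUFS1.

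The 3 Q-module core subunits tested were all called higher in 09. NDUFS3 (chromosome 15 from 75493445 to 75618929), an early building block of the complex, had 188, 145, 202 and 203 FPKM in norepinephrine animals 1 to 4, against 141, 264, 154 and 154 FPKM in controls 1 to 4, and its 09 minus 10 difference was 0.63 (SE 0.11, adjusted p = 0.0146). NDUFS7 (chromosome 5 from 41207720 to 41215283), which holds the last iron-sulfur cluster before ubiquinone, was the least abundant subunit, with 18.5, 15.1, 20.2 and 19.8 FPKM in norepinephrine animals 1 to 4, against 14.9, 26.8, 15.1 and 15.1 FPKM in controls 1 to 4. The 4 animals numbered 09 averaged 21.3 ± 3.74 FPKM and the 4 numbered 10 averaged 15.05 ± 0.110 FPKM (SD, n = 4 each) without overlap, and the difference was 0.57 (SE 0.13, adjusted p = 0.0248). NDUFS8 (chromosome 21 from 44842455 to 44845453), another iron-sulfur subunit, had 113, 69.4, 95.1 and 87.9 FPKM in norepinephrine animals 1 to 4, against 59.3, 126, 54.6 and 48.0 FPKM in controls 1 to 4. It had the largest 09 minus 10 difference of the subunits, 0.85 (SE 0.18, adjusted p = 0.0226), and the groups did not overlap. Without control 2 the differences fell to 0.50 for NDUFS8, 0.35 for NDUFS7 and 0.45 for NDUFS3. For norepinephrine minus control the values were 0.43 (SE 0.29, adjusted p = 0.768) for NDUFS8, 0.07 (SE 0.20, adjusted p = 0.944) for NDUFS7 and 0.08 (SE 0.21, adjusted p = 0.938) for NDUFS3; control 2 lay above every norepinephrine animal in all 3 genes.

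Of the 18 accessory subunits, 12 were called higher in 09 and 0 lower, and all 18 differences were positive as deposited, while 15 were at equal totals. The 3 with the largest difference were NDUFA3, NDUFA6 and NDUFB6. NDUFA3 (chromosome 14 from 60336013 to 60347257), a membrane-arm subunit, had 46.2, 34.6, 48.5 and 46.9 FPKM in norepinephrine animals 1 to 4, against 35.2, 66.4, 32.9 and 31.8 FPKM in controls 1 to 4, with no overlap between number groups and a difference of 0.71 (SE 0.13, adjusted p = 0.0166), which was 0.44 without control 2. NDUFB6 (chromosome 2 from 100489026 to 100504967), also of the membrane arm, had 46.9, 34.8, 58.2 and 57.9 FPKM in norepinephrine animals 1 to 4, against 34.7, 57.4, 32.5 and 35.0 FPKM in controls 1 to 4. Its 09 animals were within 46.9 to 58.2 FPKM and its 10 animals within 32.5 to 35.0 FPKM, a difference of 0.68 (SE 0.11, adjusted p = 0.0144). NDUFA6 (chromosome 3 from 217072782 to 217082377), a LYR-motif protein of the matrix arm, had 56.3, 54.3, 57.8 and 57.6 FPKM in norepinephrine animals 1 to 4, against 44.3, 129.5, 49.8 and 61.5 FPKM in controls 1 to 4. A single animal stood out: control 2 was at 129.5 FPKM and the other 7 at 44.3 to 61.5 FPKM. The difference of 0.70 (SE 0.25, adjusted p = 0.0973) was not called and was 0.07 without control 2.

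At the other end, NDUFA12, NDUFB4 and NDUFA10 had the smallest accessory differences between number groups. NDUFA12 (chromosome 3 from 131047599 to 131075182), an N-module subunit, had 189.8, 171, 188 and 180.4 FPKM in norepinephrine animals 1 to 4, against 171, 219, 189 and 198 FPKM in controls 1 to 4, and its number groups overlapped, with a difference of 0.18 (SE 0.09, adjusted p = 0.209). NDUFB4 (chromosome 1 from 183608025 to 183613911), of the membrane arm, had 298, 267, 329 and 268 FPKM in norepinephrine animals 1 to 4, against 255, 336, 260.4 and 300.1 FPKM in controls 1 to 4, again overlapping, with 0.23 (SE 0.11, adjusted p = 0.189). NDUFA10 (chromosome 1 from 1485014 to 1523256), a membrane-arm subunit with a fold like that of nucleoside kinases, had 66.2, 55.3, 70.9 and 65.0 FPKM in norepinephrine animals 1 to 4, against 56.6, 77.7, 50.9 and 53.4 FPKM in controls 1 to 4. Its number groups did not overlap and it was called, at 0.40 (SE 0.10, adjusted p = 0.0344), but at equal totals the value was -0.04; those of NDUFA12 and NDUFB4 turned to -0.27 and -0.22. For norepinephrine minus control the values were 0.14 (SE 0.24, adjusted p = 0.897) for NDUFA3, 0.02 (SE 0.14, adjusted p = 0.981) for NDUFB4 and 0.12 (SE 0.16, adjusted p = 0.861) for NDUFA10.

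The largest and smallest norepinephrine differences of the accessory subunits did not pass the test either. NDUFB10 (chromosome 24 from 1503091 to 1505967), of the membrane arm, had 222, 170.5, 235 and 229.5 FPKM in norepinephrine animals 1 to 4, against 127, 226, 137 and 131 FPKM in controls 1 to 4. Controls 1, 3 and 4 lay below all norepinephrine animals and control 2 among them, which gave 0.49 (SE 0.20, adjusted p = 0.660) for norepinephrine minus control and 0.60 (SE 0.10, adjusted p = 0.0146) for 09 minus 10. NDUFB5 (chromosome 1 from 205688435 to 205703763), also of the membrane arm, had 199, 149.7, 201 and 195 FPKM in norepinephrine animals 1 to 4, against 126, 198, 147 and 135 FPKM in controls 1 to 4, with the same arrangement, 0.31 (SE 0.17, adjusted p = 0.706) for norepinephrine and 0.47 (SE 0.09, adjusted p = 0.0182) for 09 minus 10. NDUFB6 had 0.31 (SE 0.22, adjusted p = 0.773) for norepinephrine. NDUFB2 (chromosome 4 from 103790997 to 103795700), another membrane-arm subunit, varied widely, with 144, 103, 294 and 161 FPKM in norepinephrine animals 1 to 4, against 216, 232, 188 and 112 FPKM in controls 1 to 4. Within each treatment, where 1 number group holds a single animal, all animals numbered 09 were above all numbered 10. Across the 8 animals the number groups overlapped, at 144 to 294 FPKM in 09 and 103 to 216 FPKM in 10. The treatment groups overlapped too. The differences were -0.14 (SE 0.33, adjusted p = 0.926) for norepinephrine and 0.68 (SE 0.32, adjusted p = 0.179) for 09 minus 10. The norepinephrine differences of NDUFA6, -0.20 (SE 0.29, adjusted p = 0.883), and NDUFA12, -0.09 (SE 0.12, adjusted p = 0.871), were also negative, and that of NDUFA6 was 0.13 without control 2.

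The remaining 9 accessory subunits (NDUFA2, NDUFA8, NDUFB3, NDUFB7, NDUFB8, NDUFB9, NDUFS4, NDUFS5 and NDUFV3) had 09 minus 10 differences of 0.45 to 0.66 and norepinephrine minus control differences of -0.07 to 0.24. Of these, 7 were called higher in 09. NDUFB3 (adjusted p = 0.0526) and NDUFB9 (adjusted p = 0.05002, just above the threshold) were not, although their number groups did not overlap. NDUFS5, of the side facing the intermembrane space, was the most abundant subunit at 546 ± 77.1 FPKM in 09 and 405 ± 19.0 FPKM in 10 (SD, n = 4 each). NDUFB8, a membrane-arm subunit whose protein is often used as a marker of assembled complex I, had 511 ± 48.7 FPKM in 09 and 360.2 ± 34.4 FPKM in 10 (SD, n = 4 each), a difference of 0.62 (SE 0.10, adjusted p = 0.0118).

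**Figure D3:**
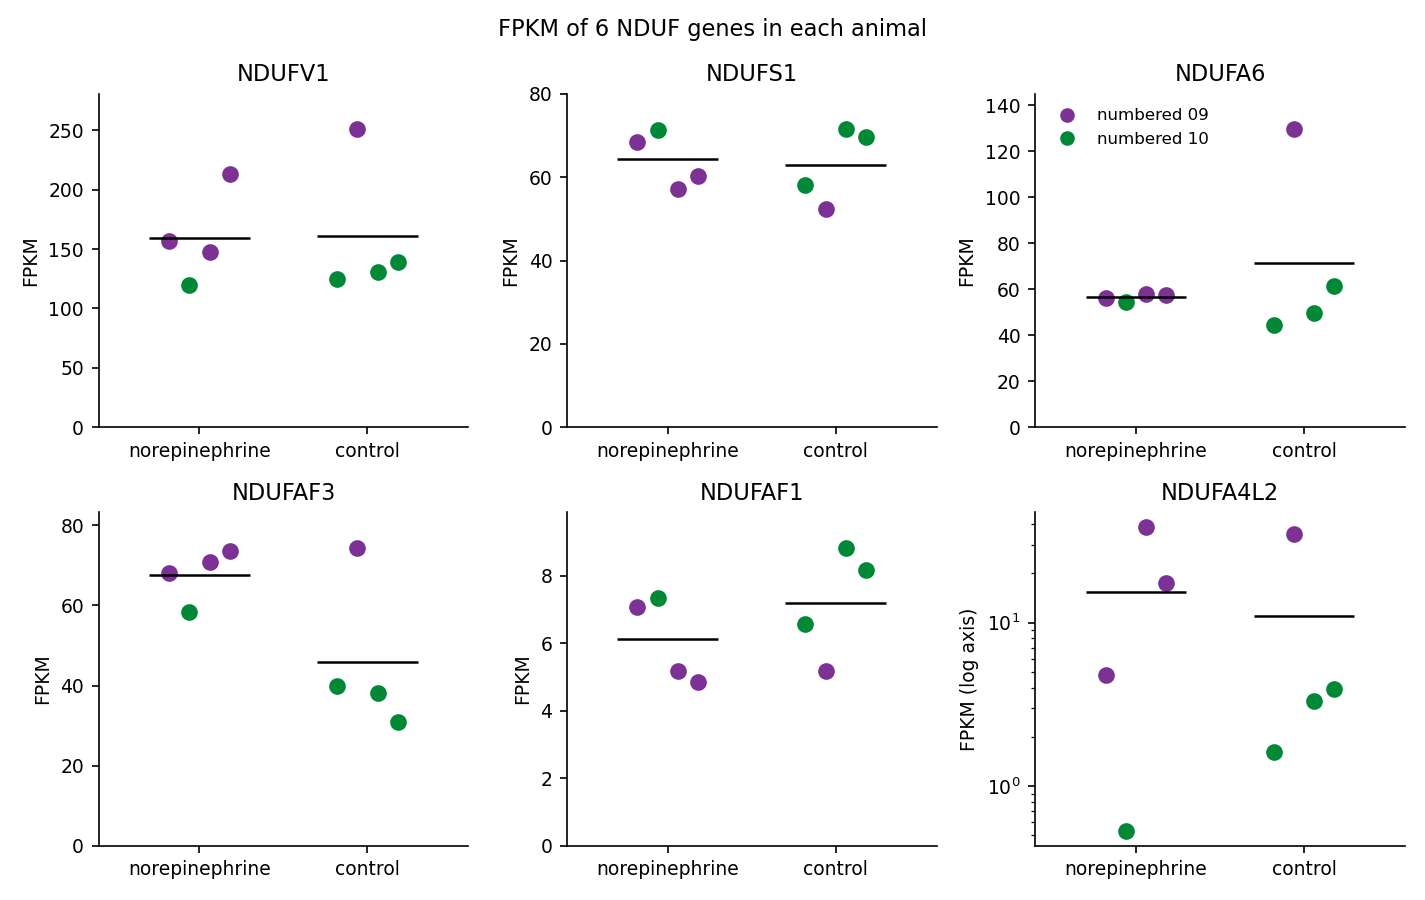
FPKM of 6 NDUF genes in each animal, norepinephrine on the left and control on the right of each panel, with the group mean as a line and colour for the first digits of the animal number. NDUFV1, NDUFAF3 and NDUFA4L2 (log axis) have every 09 animal above every 10 animal, NDUFS1 and NDUFAF1 have overlapping groups with a lower mean in 09, and NDUFA6 is high in control 2 alone.

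Of the 6 assembly factors tested, 1 was called higher in 09 and 0 lower. Their median difference of 0.11 was close to the 0.09 of all rows. At equal totals it was -0.30, again close to that of all rows, -0.31. NDUFAF3 (chromosome 19 from 50916420 to 50917381), which works with NDUFAF4 early in assembly in human cells, had 68.0, 58.4, 70.8 and 73.6 FPKM in norepinephrine animals 1 to 4, against 39.8, 74.4, 38.1 and 30.9 FPKM in controls 1 to 4. Control 2 was alone among the controls in reaching the norepinephrine level, and all 09 animals were above all 10 animals. It gave 0.65 (SE 0.18, adjusted p = 0.0434) for 09 minus 10, 0.27 without control 2 and 1.03 without norepinephrine animal 2, and 0.63 (SE 0.24, adjusted p = 0.624) for norepinephrine, where it had the lowest adjusted p of the members. NDUFAF1 (chromosome 7 from 33808214 to 33853457), part of the human complex that assembles the membrane arm, had 7.07, 7.34, 5.18 and 4.85 FPKM in norepinephrine animals 1 to 4, against 6.56, 5.18, 8.82 and 8.15 FPKM in controls 1 to 4. Its mean was lower in 09, at 5.57 ± 1.01 FPKM, than in 10, at 7.72 ± 0.981 FPKM (SD, n = 4 each), with overlap, and -0.42 (SE 0.18, adjusted p = 0.134) was not called as deposited. For norepinephrine minus control it gave -0.20 (SE 0.20, adjusted p = 0.825).

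For the other 4 assembly factors the number groups overlapped and none was called. NDUFAF2 (chromosome 16 from 18239289 to 18239540), a chaperone related to NDUFA12, had 19.0, 13.5, 15.5 and 20.0 FPKM in norepinephrine animals 1 to 4, against 14.8, 13.6, 16.9 and 21.4 FPKM in controls 1 to 4. Its highest animals were norepinephrine animal 4 and control 4, 1 of each number, and its 09 minus 10 difference ran from -0.34 to 0.40 on leaving out single animals. The NDUFAF2 row spans 252 bp, the shortest of the tested members, and whether it covers the whole gene was not tested. NDUFAF5 (chromosome 13 from 6872875 to 6909267), which hydroxylates an arginine of NDUFS7 in human cells, had 1.75, 1.496, 1.33 and 2.34 FPKM in norepinephrine animals 1 to 4, against 1.21, 1.65, 1.27 and 1.43 FPKM in controls 1 to 4. NDUFAF6 (chromosome 9 from 81883016 to 81926044), needed in human cells for the mitochondrially encoded part of the complex, had 8.10, 7.53, 7.97 and 11.1 FPKM in norepinephrine animals 1 to 4, against 6.95, 7.51, 5.49 and 7.65 FPKM in controls 1 to 4. Norepinephrine animal 4 was the highest for both. NDUFAF7 (chromosome 3 from 86766525 to 86780060), a mitochondrial methyltransferase in human cells, had 9.98, 13.1, 10.1 and 12.4 FPKM in norepinephrine animals 1 to 4, against 10.8, 12.6, 10.3 and 8.60 FPKM in controls 1 to 4. The 09 minus 10 differences were 0.03 (SE 0.21, adjusted p = 0.936), 0.18 (SE 0.19, adjusted p = 0.546), 0.19 (SE 0.17, adjusted p = 0.469) and 0.03 (SE 0.17, adjusted p = 0.905) in that order, and at equal totals all 4 were negative, from -0.40 to -0.10. The norepinephrine differences were 0.03 (SE 0.18, adjusted p = 0.973), 0.18 (SE 0.19, adjusted p = 0.826), 0.29 (SE 0.17, adjusted p = 0.725) and 0.10 (SE 0.16, adjusted p = 0.892).

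Other proteins that assemble complex I have names outside the NDUF series. Of 13 on the list, 12 had a row and were tested, and 0 were called in either comparison, with 5 at an unadjusted p under 0.05 for 09 minus 10 (34.6% of all rows) and 0 for norepinephrine. Their median difference for 09 minus 10 was 0.18 as deposited and -0.26 at equal totals, beside 0.09 and -0.31 for all rows. For norepinephrine minus control it was 0.03, beside 0.02 for all rows. The largest differences between number groups were those of COA1 (0.83, adjusted p = 0.140) and TMEM261 (0.59, adjusted p = 0.227).

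NDUFA4L2 (chromosome 3 from 162100195 to 162101751), a paralogue of NDUFA4 that low oxygen induces in human cells, had 4.79, 0.535, 38.3 and 17.5 FPKM in norepinephrine animals 1 to 4, against 1.61, 34.7, 3.33 and 3.95 FPKM in controls 1 to 4. Its 2 highest animals, norepinephrine animal 3 and control 2, are the 2 labelled female, both numbered 09, so sex and number cannot be told apart for them. All 09 animals were above all 10 animals, by 3.31 (SE 0.62, adjusted p = 0.0167), and this was the one member called higher also at equal totals (2.97) and the member with the largest difference. With 1 animal left out the difference lay between 3.00 and 3.65. For norepinephrine minus control it was 0.42 (SE 1.07, adjusted p = 0.934), with values from -0.29 to 1.27 on leaving out single animals.

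Per animal, the mean log2(FPKM + 1) of the 24 subunits was 7.09, 6.75, 7.14 and 7.11 in norepinephrine animals 1 to 4, against 6.69, 7.41, 6.77 and 6.76 in controls 1 to 4. Norepinephrine animal 2 lay with the 10 controls, and control 2 was the highest of all. Control 2 had the highest value for 18 of 24 subunits and control 1 the lowest for 15. At equal totals the means were 6.88 to 7.13 in 09 and 6.94 to 6.99 in 10, so that the number groups overlapped and control 2 remained the highest. The subunits made up 0.412% to 0.479% of all FPKM in 09 and 0.429% to 0.439% in 10. The ratio of NDUFV1 to NDUFS1, a pair chosen after their values were seen and free of any library scaling, was 2.29, 2.59, 3.54 and 4.79 in norepinephrine animals 1, 3 and 4 and control 2, against 1.68, 2.15, 1.83 and 2.00 in norepinephrine animal 2 and controls 1, 3 and 4.

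**Figure D4:**
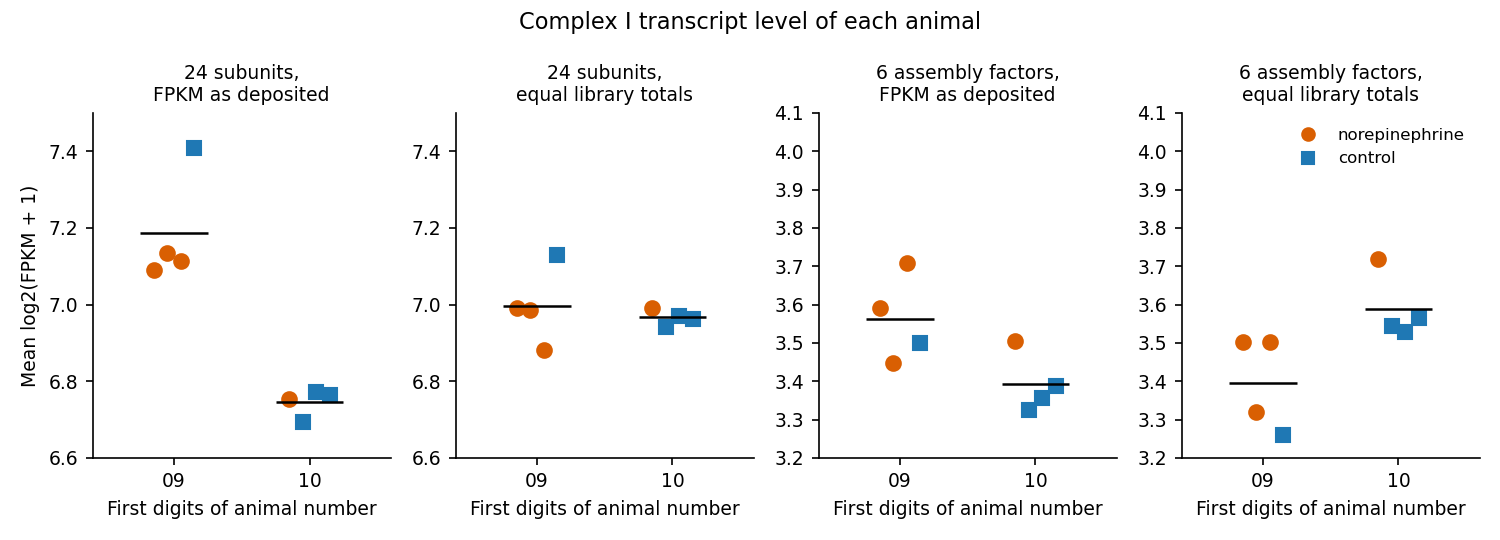
Mean log2(FPKM + 1) per animal of the 24 subunits (left 2 panels) and of the 6 assembly factors (right 2 panels), as deposited and with equal library totals, split by how the animal number begins; lines are group means. As deposited the subunit means are 7.09 to 7.41 in 09 and 6.69 to 6.77 in 10, and at equal totals they overlap. The assembly factor mean is higher in 09 as deposited and lower in 09 at equal totals. The median 09 minus 10 difference of all rows was 0.09 as deposited and -0.31 at equal totals.

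Within number groups the norepinephrine difference of the subunits was mostly negative among 09 animals and near 0 among 10 animals. Each of these rests on 1 lone animal in 1 arm. Among 09 animals, the 3 norepinephrine animals were on average below control 2 in 21 of 24 subunits, with a median log2 difference of -0.27, and in 18 of 24 all 3 were below it, against 31.4% of all rows. Over all rows the 09 difference was positive in 45.8%, with a median of -0.04. Among 10 animals, norepinephrine animal 2 was above the mean of the 3 controls in 15 of 24 subunits, with a median of 0.04. Over all rows this held in 50.3%, with a median of 0.002. The difference between these differences was tested by an interaction term in limma, in which each lone animal is assumed to vary like the others. It called 0 of 31 members and 16 of 13252 rows (0.121%, with 0.00755% higher and 0.113% lower). At an unadjusted p under 0.05 there were 7 members, against 5.61% of all rows, and the lowest adjusted p of a member was 0.806, for NDUFA6.

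**Figure D5:**
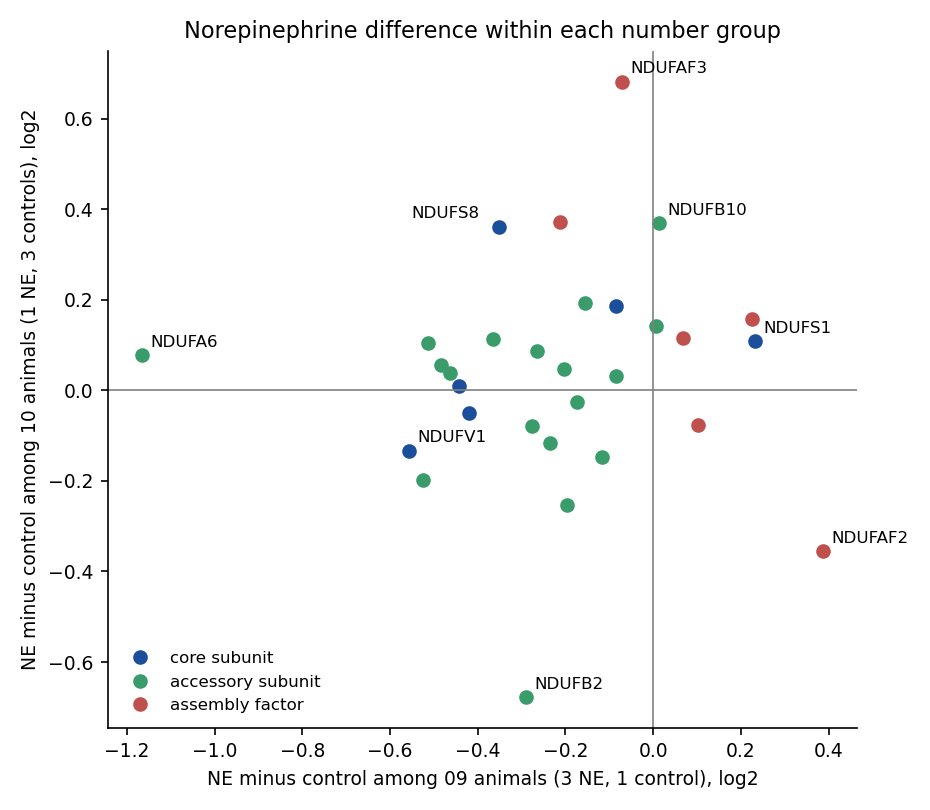
Log2 norepinephrine minus control difference of each subunit and assembly factor among 09 animals (horizontal, 3 norepinephrine against 1 control) and among 10 animals (vertical, 1 norepinephrine against 3 controls). For 21 of 24 subunits the point lies left of 0, with NDUFA6 farthest at -1.16, while 15 of 24 lie above 0 on the vertical axis. Over all tested rows, 45.8% are positive among 09 animals and 50.3% among 10 animals.

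Other gene groups of energy metabolism and translation were also higher in 09, and whether complex I differed from them was not tested. Subunits of complexes II to V were called higher in 09 in 20 of 26 tested rows, beside 10.4% of all rows, with a median log2 difference of 0.66. Mitochondrial ribosomal proteins were called higher in 29 of 65, with a median of 0.40, and cytosolic ribosomal proteins in 32 of 38, with a median of 0.85. At equal totals these medians were 0.22, -0.02 and 0.39, in that order. The median of all rows was 0.09 as deposited and -0.31 at equal totals, so each list stayed above it. None of these lists had a member called lower in 09, and all had 0 called for norepinephrine, with 0, 3 and 0 at an unadjusted p under 0.05. Of the regulators of nuclear respiratory genes, 1 of 6 tested was called, near the 16.5% of all rows called in either direction. It was ESRRA, a nuclear receptor that drives many oxidative genes, higher in 09 (0.85, adjusted p = 0.0111). NRF1 (0.26, adjusted p = 0.247), GABPA (-0.29, adjusted p = 0.0905) and YY1 (0.08, adjusted p = 0.613) were not called. Nor were TFAM (-0.27, adjusted p = 0.272) and PPRC1 (0.03, adjusted p = 0.895). PPARGC1A and PPARGC1B were under the abundance filter. The acinar markers stood higher in 09 in 8 of 8 tested rows with 1 called, and the islet markers in 4 of 8, with 2 called higher and 1 lower. Over all rows 10.4% were called higher and 6.06% lower. Their part in the complex I difference was not tested.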

How the data were processed

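The authors deposited FPKM, 1 value per animal in each of 25000 rows, beside a name and a locus on Oar_v3.1, per the file headers; no counts came with them. Columns and labels share the animal number, which joined them, and 0 sample columns were left out. TruSeq libraries of selected messenger RNA were read as pairs of 100 bp, per the labels' protocols. Whether strand was kept is not stated, so antisense genes that overlap a member may have contributed reads. The submitters' processing notes list TopHat2 2.0.1, Cufflinks 2.1.1, Cuffdiff and Oar_v3.1. Each fetus has its own number and weight, so replicates are separate animals. Absolute depth is unknown and no counting interval was computed. Relative to control 1, steps of 1 fragment in low genes gave a depth of 1.01 for norepinephrine animal 2, 1.17 for control 3 and 1.08 for control 4, and were unclear in the other 4.

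All tests used log2(FPKM + 1), on which changes of low genes appear smaller than they are. The 13252 rows with a mean of at least 1 FPKM were tested two-sided with limma 3.58.1 in R 4.3.3 (lmFit, eBayes with an intensity trend). P-values were adjusted by Benjamini-Hochberg over all tested rows, with a threshold of 0.05. Norepinephrine minus control had no covariate, and 09 minus 10 had treatment in the model. The procedure was tested on simulated data with noise drawn independently for each gene and animal. Shifts shared by many rows of an animal were not simulated, so that test does not cover them. Per-animal values are named for the core subunits, the tested NDUFAF genes, NDUFA4L2, and the 3 accessory subunits at each end of each comparison. Members, lists and tests were chosen with earlier results of these data known. Symbols of 34 of 34 members matched the RefSeq table of another assembly (ARS-UI_Ramb_v3.0), used for names and chromosomes only; 31 lay on the same chromosome. Coordinates count from 1. Alternatives changed the pseudocount to 0.1, the abundance filter (a mean of 5, or none), the scaling (equal library totals, or median of ratios), the eBayes trend, the covariates and the replicate block, or left out each animal.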

Additional observations from a re-analysis of the deposited data

Results flagged for a closer look

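Single animals lay far from the rest of their group, by the gap to the nearest other animal relative to the range of the 4, in 17 of 67 groups examined. The cut-off flags about 1 in 20 groups by chance when groups are independent. These groups reuse the same animals from gene to gene, and each holds 1 animal of the other number. The count of 17 therefore cannot be compared with that rate. In norepinephrine animals, NDUFA3 (34.6 FPKM), NDUFB5 (149.7 FPKM) and the mean log2 level of the subunits (6.75) were low in animal 2, the one numbered 10, and NDUFAF6 (11.1 FPKM) was high in animal 4. In controls, the mean log2 level of the subunits (7.41) was high in control 2, the one numbered 09. So were the core subunits NDUFS3 (264 FPKM), NDUFS7 (26.8 FPKM), NDUFS8 (126 FPKM) and NDUFV1 (251 FPKM). The accessory subunits NDUFA3 (66.4 FPKM), NDUFB6 (57.4 FPKM), NDUFB7 (477 FPKM), NDUFB10 (226 FPKM), NDUFS5 (656 FPKM) and NDUFV3 (54.5 FPKM) stood out in the same animal, as did NDUFA4L2 (34.7 FPKM). NDUFAB1, at 0 in the other 3 controls, was listed at 0.160 FPKM in control 1, where any value above 0 would be flagged. Apart from NDUFAF6 and NDUFAB1, each of these animals is the one in its treatment group that carries the other number.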

How the results depend on the processing

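Norepinephrine minus control called 0 members in all 18 alternatives. Over all rows it called 1 row at equal library totals and 1 with the number prefix as covariate, and 0 to 2 when single animals were left out. The subunit median of 0.09 turned to -0.059 at equal totals, -0.15 with the prefix, -0.20 with gestational age and -0.12 with the acinar marker mean, and ran from 0.02 to 0.26 when animals were left out. The assembly factor median of 0.14 was 0.023 at equal totals and -0.031 with gestational age, and ran from 0.07 to 0.21 with animals left out.

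For 09 minus 10, 2187 rows and 18 members were called. Equal totals gave 4346 rows and 3 members, gestational age 1 and 0, and the acinar mean 293 and 1. Leaving out animals gave 18 to 2280 rows and 0 to 16 members, the lowest without control 2. The subunit median of 0.58 was 0.14 at equal totals, 0.53 with gestational age, 0.70 with the acinar mean, 0.46 without the treatment term and 0.41 to 0.73 with animals left out. The assembly factor median of 0.11 turned to -0.30 at equal totals and -0.092 with gestational age, was 0.32 with the acinar mean, and ran from 0.06 to 0.19 with animals left out. The median of all rows was 0.09 as deposited, -0.31 at equal totals, 0.05 with gestational age and 0.12 with the acinar mean. The interaction called 16 rows, 5 with a pseudocount of 0.1, 4 with a mean of at least 5 FPKM, 56 without a filter, and 14 to 24 with animals left out. Beyond what the equal totals and the smaller number of animals do by construction, the causes were not tested.

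Animals with the same replicate number in both groups are different fetuses, and their deviations correlated at -0.16, -0.38, -0.034 and 0.093. Each such pair holds an animal numbered 09 and an animal numbered 10, so these correlations cannot show whether the replicate numbers pair the animals. With the replicate block, 09 minus 10 called 471 rows and 6 members and norepinephrine minus control 0 members.

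At equal library totals the norepinephrine minus control differences that reversed were NDUFA10 -0.028, NDUFA3 -0.011, NDUFAF2 -0.12, NDUFAF7 -0.042, NDUFB4 -0.14, NDUFS1 -0.12, NDUFS3 -0.073, NDUFS7 -0.076 and NDUFV1 -0.14. At equal library totals the 09 minus 10 differences that reversed were NDUFA10 -0.042, NDUFA12 -0.27, NDUFAF2 -0.40, NDUFAF5 -0.10, NDUFAF6 -0.21, NDUFAF7 -0.38, NDUFB4 -0.22 and NDUFV2 -0.22. With gestational age as covariate the norepinephrine minus control differences that reversed were NDUFA10 -0.083, NDUFA3 -0.29, NDUFA4L2 -1.24, NDUFAF1 0.11, NDUFAF2 -0.14, NDUFAF5 -0.16, NDUFAF6 -0.019, NDUFAF7 -0.043, NDUFB4 -0.0052, NDUFB6 -0.12, NDUFS3 -0.33, NDUFS7 -0.29, NDUFS8 -0.069 and NDUFV1 -0.67. With gestational age as covariate the 09 minus 10 differences that reversed were NDUFAF2 -0.15, NDUFAF5 -0.081, NDUFAF6 -0.026 and NDUFAF7 -0.10. With the acinar marker mean as covariate the norepinephrine minus control differences that reversed were NDUFA10 -0.063, NDUFA3 -0.13, NDUFA4L2 -1.58, NDUFAF2 -0.047, NDUFB4 -0.13, NDUFB6 -0.029, NDUFS3 -0.18, NDUFS7 -0.15 and NDUFV1 -0.19. With the acinar marker mean as covariate the 09 minus 10 differences that reversed were NDUFAF2 -0.11. With the number prefix as covariate the norepinephrine minus control differences that reversed were NDUFA10 -0.079, NDUFA3 -0.21, NDUFA4L2 -1.23, NDUFAF1 0.013, NDUFB4 -0.10, NDUFB6 -0.027, NDUFS3 -0.23, NDUFS7 -0.22 and NDUFV1 -0.34. With median-of-ratios scaling the 09 minus 10 differences that reversed were NDUFAF2 -0.045 and NDUFAF7 -0.039. Leaving out 1 animal at a time, the norepinephrine minus control differences that reversed ran NDUFA4L2 from -0.29 to 1.27, NDUFA6 from -0.38 to 0.13, NDUFAF2 from -0.055 to 0.15, NDUFB2 from -0.43 to 0.073, NDUFB4 from -0.046 to 0.093, NDUFS1 from -0.047 to 0.10, NDUFS3 from -0.015 to 0.28, NDUFS7 from -0.0016 to 0.27 and NDUFV1 from -0.14 to 0.25. Leaving out 1 animal at a time, the 09 minus 10 differences that reversed ran NDUFAF2 from -0.34 to 0.40 and NDUFAF7 from -0.26 to 0.33. FPKM without counts gives no counting error, and 4 animals per group, unevenly spread over number groups, limit what can be separated.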
